A study of Mus musculus with 2 samples.

Results

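The Ms4a genes encode small proteins that cross the cell membrane several times, and most of them are read in blood cell lineages. Described here are 8 members, Ms4a1, Ms4a2, Ms4a4b, Ms4a4c, Ms4a6b, Ms4a6c, Ms4a6d and Ms4a7, which were chosen by name out of 33696 genes in the count matrices. The data were unique molecular identifier (UMI) counts from 10x single-cell RNA sequencing of sorted live cells from dissociated lungs of adult mice. There was 1 library from an animal labelled GFI1 WT and 1 library from an animal labelled GFI1 KO, where GFI1 is a transcription factor of blood cells that the study removed in the germline, and neither label names a treatment. After filtering, 10495 cells were kept with the KO label with a median of 11076 UMIs, and 19342 with the WT label with a median of 6217. The study's methods speak of duplicates, and 1 library of each genotype was analysed here. Because of this, no difference between genotypes could be set against a spread between animals. All intervals are exact 95% intervals that cover counting error only, and a gap between the labels can be a gap between 2 animals or 2 library preparations.

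As background, Ms4a1 encodes CD20, a B cell surface protein that sits close to the B cell receptor and is the target of B cell depleting antibodies. Ms4a2 encodes the beta chain of the high-affinity IgE receptor FceRI, which arms mast cells and basophils, and Ms4a4b encodes a T cell protein linked to the tuning of T cell receptor signals. The Ms4a4c, Ms4a6b, Ms4a6c, Ms4a6d and Ms4a7 products are known mainly from monocytes, macrophages and activated lymphocytes, and their biochemical roles are less well settled.

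In this knockout design the targeted gene was read first. Levels are given as CPM, the UMIs of a gene per 1000000 gene UMIs of the cells in question. Gfi1 was at 3.60 CPM with the KO label, from 340 UMIs, and at 3.47 CPM with the WT label, from 470 UMIs, so the level of this 3' tag did not check the labels. The cells fell into 38 clusters, of which 11 stayed unnamed, and none of the clusters was built from an Ms4a gene because the family was withheld from the variable genes. With the KO and WT labels there were 898 and 2735 B-like cells, 766 and 2441 T-like cells, 218 and 2033 NK-like cells, 4315 and 250 classical monocyte-like cells, 1003 and 598 nonclassical monocyte-like cells, 41 and 377 interstitial macrophage-like cells, and 2462 and 4121 alveolar macrophage-like cells. In each of these classes 7 or 8 of the 8 markers on its list were raised in both libraries. The only mast-type cells were a cluster of 18 and 15 basophil-like cells. The libraries shared 74 cell barcodes.

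Of the 8 members, 6 matched the RefSeq promoter table of mouse build GRCm38.p6, which spans 250 bases before to 50 after each transcription start; Ms4a1 and Ms4a6d were not matched. The 300-base promoters of the pairs Ms4a6b and Ms4a6c, and Ms4a4b and Ms4a4c, are shown because these pairs were the most alike of those compared. The genes of each pair were nonetheless highest in different cells. Ms4a6b and Ms4a6c were both read in monocytes. Ms4a6b was highest in T-like cells, at 768 and 770 CPM with the KO and WT labels. Ms4a6c was highest in classical monocyte-like cells, at 1145 and 1319 CPM. Each is written 5' to 3', with capitals for runs of at least 12 bases that the pair shares in the same order. The promoters lie on the plus strand of chromosome 19, at chr19:11518309-11518608 for Ms4a6b, chr19:11469118-11469417 for Ms4a6c, chr19:11443308-11443607 for Ms4a4b and chr19:11407411-11407710 for Ms4a4c.
Ms4a6b: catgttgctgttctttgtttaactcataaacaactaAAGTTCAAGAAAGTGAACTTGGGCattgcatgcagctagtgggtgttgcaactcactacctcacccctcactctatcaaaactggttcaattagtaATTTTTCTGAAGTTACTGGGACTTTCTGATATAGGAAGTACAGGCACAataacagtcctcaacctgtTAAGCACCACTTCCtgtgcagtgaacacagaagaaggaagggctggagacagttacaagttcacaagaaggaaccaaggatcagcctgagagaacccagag
Ms4a6c: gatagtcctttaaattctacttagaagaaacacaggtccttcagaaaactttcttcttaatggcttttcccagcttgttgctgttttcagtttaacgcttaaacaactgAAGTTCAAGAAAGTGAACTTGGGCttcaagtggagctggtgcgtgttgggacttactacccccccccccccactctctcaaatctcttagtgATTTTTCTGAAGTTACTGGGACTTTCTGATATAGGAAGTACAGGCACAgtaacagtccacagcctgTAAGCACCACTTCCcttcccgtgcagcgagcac
Ms4a4b: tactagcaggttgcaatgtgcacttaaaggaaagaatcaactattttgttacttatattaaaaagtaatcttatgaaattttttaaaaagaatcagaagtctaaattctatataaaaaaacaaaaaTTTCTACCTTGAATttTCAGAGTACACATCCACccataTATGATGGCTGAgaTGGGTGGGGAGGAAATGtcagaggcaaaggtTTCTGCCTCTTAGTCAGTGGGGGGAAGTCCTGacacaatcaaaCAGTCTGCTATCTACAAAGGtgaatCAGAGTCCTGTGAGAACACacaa
Ms4a4c: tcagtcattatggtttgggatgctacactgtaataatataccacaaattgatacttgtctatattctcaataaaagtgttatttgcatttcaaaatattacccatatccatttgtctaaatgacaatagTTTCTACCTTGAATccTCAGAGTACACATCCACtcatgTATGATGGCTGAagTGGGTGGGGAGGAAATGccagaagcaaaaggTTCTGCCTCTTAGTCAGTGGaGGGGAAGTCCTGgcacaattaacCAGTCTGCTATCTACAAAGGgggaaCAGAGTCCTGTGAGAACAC

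The Ms4a6b and Ms4a6c promoters were identical at 85.3% of 225 aligned bases, which was 64% of the 300-base window. They had 86 bases of each in shared runs and a longest run of 48 bases. The Ms4a4b and Ms4a4c promoters were identical at 81.9% of 281 aligned bases, which was 76.7% of the window. They had 131 bases in shared runs and a longest run of 20. The other 13 pairs of members with a promoter were identical at 56.5% to 66.8% of aligned bases and 49.3% to 57.7% of the window. They had no shared run above 9 bases. On either strand, the GFI1 core AAATCA occurred once each in an Ms4a7 and the Ms4a6c window, against 14.0% of 32851 promoters, and the PU.1 core GAGGAA once each in an Ms4a7, the Ms4a4b and the Ms4a4c window, against 28.3%. These are matches of letters and not sites of binding, and a window without a match says nothing about the factor.

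Over the last 500 bases of their annotated transcripts, where 3' reads fall, the same pairs also shared sequence. For Ms4a4c 21.7% of 30-base words occurred in another Ms4a transcript, and 2.75% of 91-base words, the length of the transcript read in these libraries. For Ms4a6c the shares were 13.4% and 0.73%, for Ms4a6b 11.8% and 0, and for Ms4a4b 4.49% and 1.59%. Ms4a1, Ms4a2, Ms4a6d and Ms4a7 shared no such word. Values of Ms4a4b, Ms4a4c, Ms4a6b and Ms4a6c are therefore uncertain to the extent that reads could be split or dropped between copies.

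By level, the members divided the lung immune cells between them. Ms4a1 was read in B-like cells, Ms4a2 in basophil-like cells, Ms4a4b in T-like and NK-like cells, Ms4a6b in T-like cells and monocytes, Ms4a4c in monocytes and B-like cells, Ms4a6c in monocytes, Ms4a6d in monocytes and macrophages, and Ms4a7 in interstitial macrophage-like cells. For 6 of the 8 members the same class ranked first in both libraries with an interval clear of the next class. The exceptions were Ms4a4b, which was highest in NK-like cells with the KO label and in T-like cells with the WT label, and Ms4a6d, whose classical monocyte and interstitial macrophage levels of 219 and 217 CPM with the WT label did not differ beyond counting error.

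**Figure D1:**
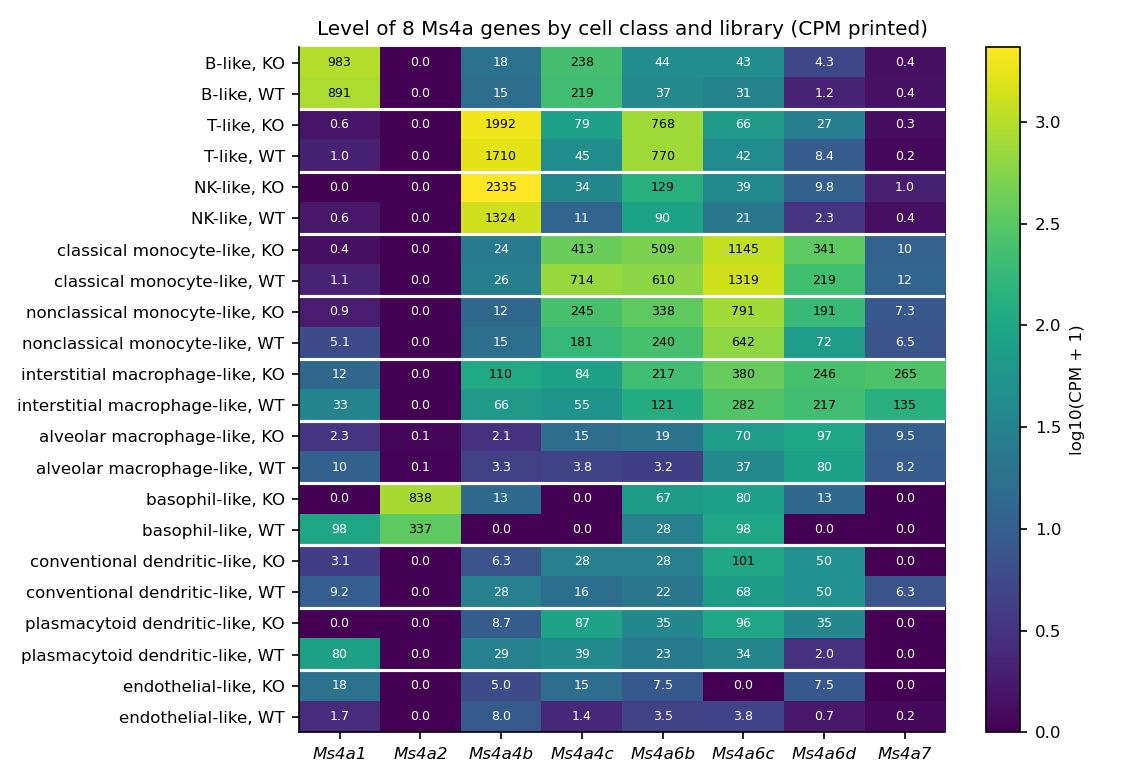
Level of each of the 8 genes (columns) in 11 cell classes of each library (rows), coloured by log10(CPM + 1) with the CPM printed in each cell. The bright cells move from Ms4a1 in B-like cells, at 983 CPM with the KO label and 891 with the WT label, to Ms4a7 in interstitial macrophage-like cells, at 265 and 135 CPM.

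Summed over all kept cells, the 2 libraries differed widely in this family. Ms4a6c, a monocyte gene, was at 628 CPM with the KO label and 80.3 with the WT label, a ratio of 7.82 (7.67 to 7.99). Ms4a4c had a ratio of 5.10, Ms4a6d of 4.22, Ms4a2 of 3.90 (2.50 to 6.24) and Ms4a6b of 2.87, while Ms4a1 was lower at 0.35 (0.33 to 0.36) and Ms4a4b at 0.53. Ms4a7 differed least, at 9.75 and 8.08 CPM. Thus 5 members were at least 2-fold higher with the KO label and 1 at least 2-fold lower, where 3.2% and 25.2% of 16306 genes were.

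Much of that contrast sat in which cells were captured. Classical monocyte-like cells made up 41.1% of kept cells with the KO label and 1.29% with the WT label, and they held 82.3% and 21.7% of all Ms4a6c UMIs. The Ms4a6d UMIs came to 73.7% from classical monocyte-like cells with the KO label, and to 61.0% from alveolar macrophage-like cells with the WT label. Ms4a6b UMIs came to 74.9% from classical monocyte-like cells with the KO label and to 56.6% from T-like cells with the WT label. A library-wide level of these genes therefore described different cells in the 2 libraries, and each comparison is given within classes from here on.

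**Figure D2:**
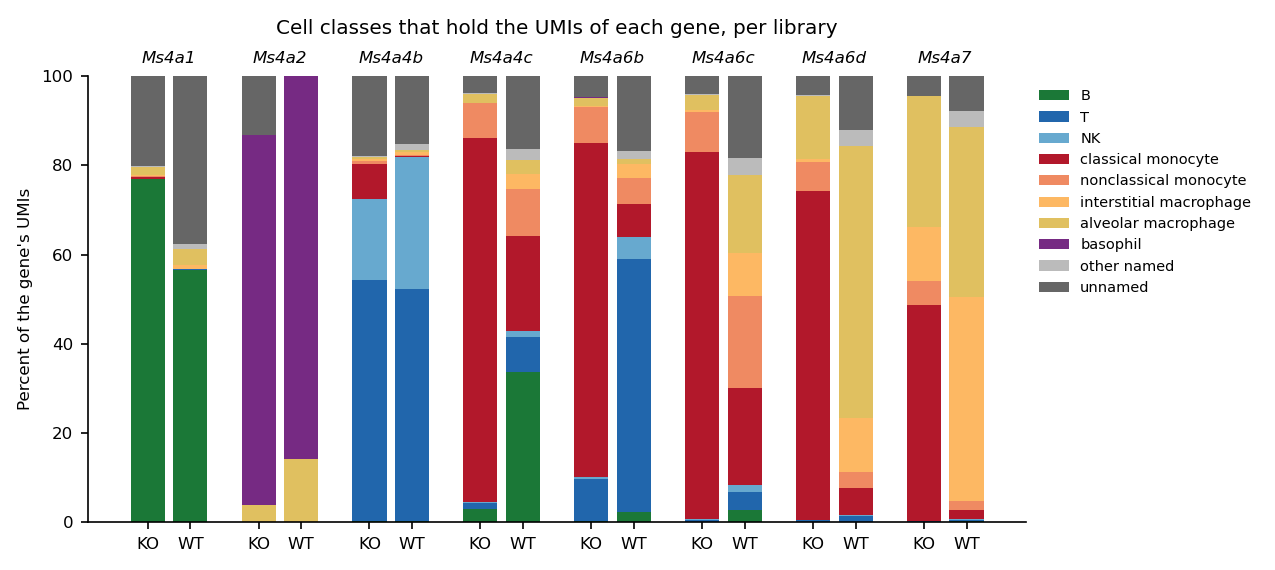
Percent of each gene's UMIs (vertical axis) that came from each cell class, with 1 bar per library. The Ms4a6c, Ms4a6b and Ms4a4c bars are filled mainly by classical monocyte-like cells with the KO label, at 74.9% to 82.3%, and by other classes with the WT label.

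Ms4a1 in B-like cells was at 983 CPM (946 to 1020) with the KO label, from 2734 UMIs in 898 cells, and at 891 CPM (872 to 911) with the WT label, from 8321 UMIs in 2735 cells. The ratio was 1.10 (1.06 to 1.15), a small excess beside the size of the level. It was 1.03 with each library clustered on its own and 1.02 in cells gated by markers without clusters. Both of those intervals included an equal level. Ms4a1 was seen in 83.9% of the B-like cells with the KO label and 83.6% with the WT label. With every cell thinned to 1500 UMIs these shares were 57.2% (53.8 to 60.5) and 58.6% (56.7 to 60.5), so no order is read from them. In T-like cells, which should lack CD20, the thinned shares were 0.0% and 0.083%, at median depths of 6247 and 5917 UMIs before thinning.

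Within the B-like cells the level depended on the cluster more than on the label. The larger cluster, led by Fcer2a, Ighd and Cr2, genes of mature follicular B cells, held Ms4a1 at 839 and 726 CPM with the KO and WT labels. The smaller, led by Agbl1, Klhl14 and Vpreb3, held it at 1913 and 1675 CPM. The KO to WT ratio was 1.15 and 1.14 in these clusters.

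Another B-marker cluster, led by Fcrl5, Il5ra and Mzb1, genes of innate-like B cells and of antibody secretion, stayed unnamed because Mzb1 is on the plasma cell list. There Ms4a1 was at 539 CPM with the KO label and 1198 with the WT label, but 49.2% of its 122 KO-labelled cells and 7.96% of its 452 WT-labelled cells were called doublets. With those cells removed the levels were 1105 and 1273 CPM, a ratio of 0.87 (0.78 to 0.96). A monocyte member differed in the same cells: Ms4a6c was at 646 and 131 CPM there, and at 216 and 127 CPM without the doublet calls.

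The B cell receptor genes and coreceptors around CD20 showed no common shift in B-like cells. Higher with the KO label were Cd79b, at 1376 and 1039 CPM (ratio 1.32), Cd37 (1.30), Cd79a (1.25) and Cd81 (1.19), which encode the signalling chains of the receptor and tetraspanins. Lower were Cr2, the complement receptor CD21, at 126 and 189 CPM (0.67), and Cd22 (0.88), an inhibitory receptor. Of the members with at least 30 UMIs in B-like cells, 5 in number, 0 were at least 2-fold higher or lower, where 1.47% and 1.64% of 10269 genes were.

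Ms4a4c was also read in B-like cells, where it stood at 238 CPM (221 to 257) with the KO label against 219 CPM (209 to 229). Its ratio was 1.09 (0.996 to 1.19), not separable from an equal level at this depth. In the Agbl1-led cluster Ms4a4c was lower with the KO label, at 115 against 172 CPM, and in the Fcer2a-led cluster higher, at 257 against 229 CPM. The marker sum for classical monocytes in B-like cells was 508 and 490 CPM.

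Ms4a4b, Ms4a6b and, at lower levels, Ms4a4c and Ms4a6d were read in T-like and NK-like cells. Ms4a4b in NK-like cells was at 2335 CPM (2242 to 2430) with the KO label and 1324 CPM (1298 to 1349) with the WT label. The ratio was 1.76 (1.69 to 1.84), and after thinning 90.0% and 74.8% of the cells had an Ms4a4b UMI. The intervals of the 2 libraries were far apart. In endothelial-like cells, outside the blood lineages, the thinned shares were 0 and 0.66%. The NK markers themselves summed to 16403 and 17404 CPM in these cells, with 3 of 8 higher with the KO label. What part the mix of NK-like cells had in the Ms4a4b difference was not tested. Cycling markers summed to 228 and 119 CPM, with 7 of 8 higher with the KO label, and their part was not tested.

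In T-like cells Ms4a4b was at 1992 CPM (1945 to 2039) with the KO label and 1710 (1686 to 1735) with the WT label, a ratio of 1.16 (1.13 to 1.2). Ms4a6b was at 768 and 770 CPM there, a ratio of 1.00 (0.95 to 1.04). These values pooled clusters that were present in unequal shares. The cluster led by Il17a and Il23r, genes of interleukin-17 producing T cells, made up 35.4% of T-like cells with the KO label and 11.5% with the WT label, and it had the lowest Ms4a4b and Ms4a6b of the T-like clusters in both libraries.

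By cluster, Ms4a4b was higher with the KO label in 3 of 4 T-like clusters. In the cluster led by Cd8a, Gzmm and Klrc1, which hold cytotoxic effector genes, it was at 3010 and 1905 CPM, a ratio of 1.58 (1.5 to 1.66). In the cluster led by Dapl1, Cd8a and Lef1, of the naive CD8 kind by its genes, it was at 2443 and 1793 CPM, a ratio of 1.36 (1.30 to 1.43). In the Cd4-led cluster it was at 2100 and 1893 CPM, a ratio of 1.11 (1.02 to 1.2). In the Il17a-led cluster it was at 710 and 764 CPM, and the ratio of 0.93 (0.85 to 1.02) included an equal level.

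The ratios of Ms4a6b followed the same order over clusters. It was higher with the KO label in the Klrc1-led cluster, at 968 and 614 CPM (ratio 1.58, 1.45 to 1.72), in the Dapl1-led cluster, at 944 and 788 CPM (1.2, 1.11 to 1.29), and in the Cd4-led cluster, at 1176 and 986 CPM (1.19, 1.07 to 1.33). It was lower in the Il17a-led cluster, at 357 and 416 CPM (0.86, 0.76 to 0.98). The pooled ratio of 1.00 was thus below the ratio of 3 of the 4 clusters it was made from. In NK-like cells Ms4a6b was at 129 and 89.8 CPM, a ratio of 1.44 (1.19 to 1.73).

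**Figure D3:**
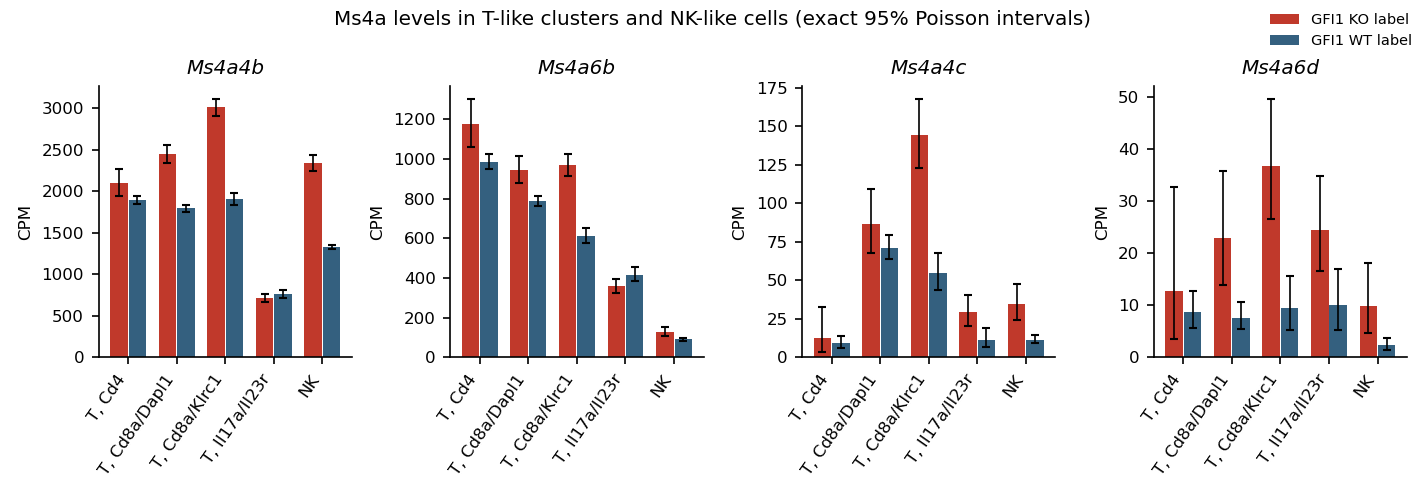
Level in CPM (vertical axes, from 0) of Ms4a4b, Ms4a6b, Ms4a4c and Ms4a6d in the 4 T-like clusters and in NK-like cells, with red bars for the GFI1 KO label, blue bars for the WT label and exact 95% Poisson intervals. Ms4a4b bars are higher with the KO label in all but the Il17a/Il23r cluster, where they stand at 710 and 764 CPM.

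The monocyte members were low in lymphocytes and mostly higher with the KO label in the pooled classes. Of the T-like cells, the Klrc1-led cluster made up 29.4% with the KO label and 13.3% with the WT label. Ms4a4c was at 78.8 and 44.5 CPM in T-like cells (ratio 1.77, 1.52 to 2.06) and at 34.2 and 11.5 CPM in NK-like cells (2.98, 1.96 to 4.45). Ms4a6d was at 27.0 and 8.44 CPM in T-like cells, a ratio of 3.2 (2.37 to 4.32), and at 9.79 and 2.30 CPM in NK-like cells. Ms4a6c was at 66.0 and 41.9 CPM in T-like cells (1.57, 1.34 to 1.85) and at 39.1 and 21.3 CPM in NK-like cells (1.84, 1.27 to 2.61), but without doublet calls these ratios were 0.92 (0.75 to 1.12) and 1.06 (0.64 to 1.66). Without those calls Ms4a4c had ratios of 1.67 and 2.77 and Ms4a6d of 2.61 and 3.03. By T-like cluster, without those calls, the Ms4a4c ratio was clear of 1 only in the Klrc1-led cluster, at 2.49 (1.89 to 3.3). The Dapl1-led, Cd4-led and Il17a-led clusters had 1.22, 1.38 and 1.09, with intervals that included 1. Ms4a6d was higher with the KO label in the Klrc1-led cluster, at 36.7 and 9.65 CPM, and the Dapl1-led cluster, at 22.9 and 7.62 CPM. Its ratios of 1.49 (0.38 to 4.31) in the Cd4-led and 0.90 (0.35 to 2.22) in the Il17a-led cluster included an equal level. After thinning 2.38% and 1.04% of T-like cells had an Ms4a6d UMI, against 1.03% and 0.14% of endothelial-like cells. Classical monocyte markers summed to 1280 CPM in T-like cells with the KO label and 728 with the WT label, with 7 of 8 higher with the KO label, and to 1334 and 1314 CPM in NK-like cells. Their part in these differences was not tested.

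Among 5 members with enough UMIs in T-like cells, 1 was at least 2-fold higher with the KO label, Ms4a6d, against 6.26% of 10870 genes, and 0 were at least 2-fold lower, against 3.72%. Among 4 in NK-like cells 1 was at least 2-fold higher, Ms4a4c, against 3.82% of 9895 genes, and 0 lower, against 7.34%. The median log2 ratio of the members was 0.65 in T-like and 0.85 in NK-like cells, beside 0.0044 and -0.083 over all genes counted. Without doublet calls the medians of the same members were 0.26 and 0.66.

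In monocytes the members differed in direction by gene and by cluster. Ms4a4c in classical monocyte-like cells was lower with the KO label, at 413 CPM (407 to 419) against 714 CPM (676 to 755), a ratio of 0.58 (0.55 to 0.61). Ms4a6d in the same cells was higher, at 341 CPM (336 to 347) against 219 CPM (198 to 242), a ratio of 1.56 (1.41 to 1.73). Ms4a6b, at 509 and 610 CPM, and Ms4a6c, at 1145 and 1319 CPM, had ratios of 0.83 (0.79 to 0.89) and 0.87 (0.83 to 0.91). After thinning, 37.0% and 50.4% of the cells had an Ms4a4c UMI and 31.3% and 17.2% an Ms4a6d UMI, so both genes kept their order at a matched depth.

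The classical monocyte-like class joined a main cluster led by Saa3, Vcan and F13a1, with 4252 and 211 cells, and a small cluster led by the interferon-induced genes Ifit1bl1, Ifit3 and Rsad2, with 63 and 39 cells. The interferon-gene cluster held more of each monocyte member. Ms4a4c was at 1237 and 1527 CPM there, against 400.2 and 545 CPM in the main cluster. Ms4a6c was at 1923 and 1691 CPM, against 1134 and 1241, and Ms4a6d at 644 and 391 CPM, against 337 and 183. Since that cluster was a larger share of the WT-labelled class, the ratios within clusters were nearer to 1 for Ms4a4c, at 0.74 (0.68 to 0.79) in the main and 0.81 (0.72 to 0.91) in the interferon-gene cluster.

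Within the main cluster Ms4a6b had a ratio of 0.94 (0.88 to 1.01) and Ms4a6c of 0.91 (0.87 to 0.96), while Ms4a6d had 1.84 (1.63 to 2.08). Within the interferon-gene cluster the ratios were 0.98 (0.86 to 1.13), 1.14 (1.03 to 1.26) and 1.65 (1.34 to 2.04). The direction for Ms4a4c and for Ms4a6d was thus the same in both, and that for Ms4a6c was not. Neutrophil markers summed to 6051 CPM in classical monocyte-like cells with the KO label and 899 with the WT label, with 6 of 8 higher. Alveolar macrophage markers summed to 4238 and 1415 CPM, with 2 of 8 higher, and immature granulocyte markers to 264 and 29.0 CPM, with 8 of 8 higher. The list of the class itself summed to 5576 and 6762 CPM, and the part of any of these in the member ratios was not tested.

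In nonclassical monocyte-like cells, led by Eno3, Adgre4 and Cd300e, genes of patrolling monocytes, all 4 of these members were higher with the KO label. Ms4a6d was at 191 CPM (181 to 202) against 72.1 CPM (63.5 to 81.5), and the ratio was 2.65 (2.31 to 3.04). Ms4a6b was at 338 and 240 CPM (1.41, 1.30 to 1.53), Ms4a4c at 245 and 181 CPM (1.35, 1.23 to 1.48) and Ms4a6c at 791 and 642 CPM (1.23, 1.17 to 1.30). Of 6 members with enough UMIs, 1 was at least 2-fold higher, Ms4a6d, against 2.36% of 9765 genes, and 0 were at least 2-fold lower, against 3.08%. In classical monocyte-like cells 0 of 6 were past 2-fold, against 9.31% and 5.78% of 11396 genes. The nonclassical markers themselves summed to 4561 and 5767 CPM in the nonclassical cells, with 2 of 8 higher with the KO label, and classical monocyte markers to 1984 and 1725 CPM, with 7 of 8 higher. Alveolar macrophage markers summed to 1305 and 547 CPM there, with 2 of 8 higher with the KO label. Erythroid markers summed to 2.19 and 3148 CPM, with 0 of 8 higher. Their part in the member ratios was not tested.

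**Figure D4:**
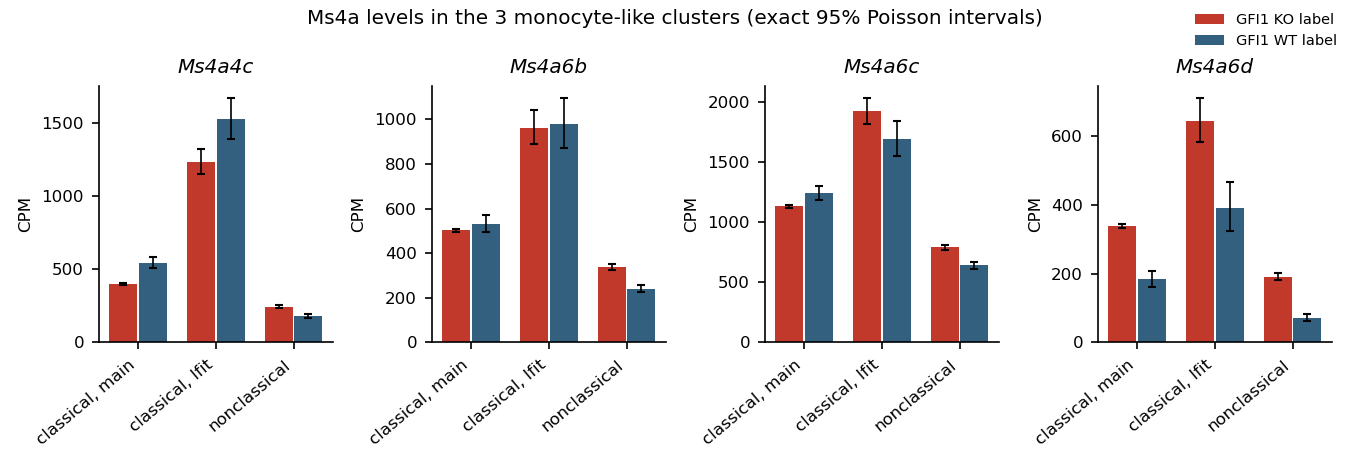
Level in CPM (vertical axes, from 0) of Ms4a4c, Ms4a6b, Ms4a6c and Ms4a6d in the main classical, the interferon-gene (Ifit) classical and the nonclassical monocyte-like cluster, with exact 95% Poisson intervals. Ms4a6d is higher with the KO label (red) in all 3, and Ms4a4c is lower in the 2 classical clusters and higher in the nonclassical one.

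The border between the 2 monocyte classes moved with the clustering. At a coarser resolution of 0.5, 408 and 364 cells stayed nonclassical monocyte-like, and the Ms4a4c ratio in them was 1.04 (0.85 to 1.27), from 96.6 and 93.0 CPM. The Ms4a6b ratio there was 1.12 (0.97 to 1.30), while Ms4a6d stayed at 2.67 (2.06 to 3.51). Over 5 ways of drawing the classical class the Ms4a4c ratio ran from 0.58 to 0.73 and that of Ms4a6d from 1.56 to 1.75. The Ms4a6c ratio did not stay below 1. It was at 0.98 (0.95 to 1.01) at resolution 0.5 and 1.02 (0.98 to 1.06) in cells gated by markers without clusters. The Ms4a6b ratio stayed below 1, at 0.94 (0.90 to 0.99) and 0.98 (0.93 to 1.03) in these settings. Its interval included 1 under the marker gate only. The higher Ms4a6d with the KO label therefore held in both monocyte classes under each of them. In classical cells the lower Ms4a6c did not hold, and the lower Ms4a6b was not clear of an equal level under the marker gate. The nonclassical excess of Ms4a4c did not hold at the coarser resolution.

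Single cells read several members together. In classical monocyte-like cells 58.8% with the KO label and 40.4% with the WT label had UMIs of 4 of the 8 members, at unequal depth of 11921 and 8741 median UMIs. The commonest number was 2 in T-like cells, at 47.1% and 60.8%, and 1 in NK-like cells, at 50.5% and 62.9%.

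Among macrophages both genes were read in both classes, and the level of Ms4a7 was far higher in interstitial cells. Ms4a7 in interstitial macrophage-like cells, led by C1qa, C1qc, Mgl2 and Pf4, was at 265 CPM (218 to 319) with the KO label, from 111 UMIs in 41 cells, and at 135 CPM (123 to 147) with the WT label, from 501 UMIs in 377 cells. The ratio was 1.96 (1.58 to 2.42). The 8 markers of the class summed to 19099 and 12023 CPM in the same cells, and neutrophil markers to 468 and 1898 CPM; the part of either in the Ms4a7 ratio was not tested. The value rested on where the cluster ended: at resolution 0.5 it held 135 and 593 cells with 110 and 529 Ms4a7 UMIs, and the ratio was 0.87 (0.70 to 1.07).

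Ms4a6d in interstitial macrophage-like cells was at 246 and 217 CPM, a ratio of 1.14 (0.92 to 1.40) that included an equal level. Ms4a6c was at 380 and 282 CPM (1.35, 1.13 to 1.59) and Ms4a6b at 217 and 121 CPM (1.79, 1.41 to 2.24). Without the doublet calls the Ms4a6b ratio was 1.42 (1.07 to 1.85). Of 7 members counted, 0 were at least 2-fold higher, against 3.26% of 9348 genes, and 1 lower, Ms4a1, against 7.54%, at 11.9 and 32.6 CPM; B markers summed to 181 and 337 CPM in these cells, and their part was not tested.

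Alveolar macrophage-like cells held Ms4a6d at 97.2 CPM (93.6 to 101) with the KO label against 80.2 CPM (77.8 to 82.7), and the ratio was 1.21 (1.15 to 1.27). Ms4a7 was low there, at 9.45 and 8.17 CPM (1.16, 0.99 to 1.35), from 270 and 417 UMIs. Ms4a6c was at 70.4 and 37.1 CPM, a ratio of 1.90, but a cluster within this class with 139 and 148 cells had 96.4% and 88.5% doublet calls, and without doublet calls Ms4a6c was at 34.3 and 33.8 CPM, a ratio of 1.01 (0.93 to 1.10). Of 7 members counted, 2 were at least 2-fold higher, Ms4a4c and Ms4a6b, against 1.17% of 12728 genes, and 1 lower, Ms4a1, against 5%. Without doublet calls Ms4a6b was at 1.85 and 1.88 CPM and Ms4a4c at 1.77 and 1.05 CPM, so most of both excesses lay in cells called doublets.

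Ms4a2 was confined in practice to the 33 basophil-like cells, led by Mcpt8, Cyp11a1, Cpa3 and Prss34. Of 76 Ms4a2 UMIs with the KO label 63 lay in these cells, and of 28 with the WT label 24. The remaining 13 and 4 UMIs came from 2 cells in each library. Per basophil-like cell the lowest, median and highest counts were 1, 4 and 7 with the KO label and 0, 1 and 4 with the WT label, so the ranges overlapped.

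The summed level of Ms4a2 was 838 CPM (644 to 1073) with the KO label against 337 CPM (216 to 501), and the ratio was 2.49 (1.53 to 4.16). After thinning 61.1% (35.7 to 82.7) and 46.7% (21.3 to 73.4) of the cells had an Ms4a2 UMI, which did not separate the libraries. Without doublet calls, which were 13.3% of the WT-labelled cells and 0 of the others, the levels were 838 and 426 CPM and the ratio 1.97 (1.2 to 3.32). Of 748 genes with enough UMIs in these cells Ms4a2 was 1 of the 7.49% that were at least 2-fold higher with the KO label, and 11.8% were at least 2-fold lower.

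The other FceRI chains stood the same way in these cells, counted with the cells called doublets left in. Fcer1a, the IgE-binding alpha chain, had 73 and 35 UMIs (ratio 1.98, 1.30 to 3.05), and Fcer1g, the shared gamma chain, 198 and 112 (1.68, 1.32 to 2.13). Of the signalling genes downstream, Lat had 15 and 4 UMIs, Fyn 12 and 25, Lyn 31 and 41, and Syk 8 and 10. The antibody tag for the FceRI alpha chain had a median of 47.5 UMIs per cell with the KO label and 44 with the WT label, against 1 to 9 in the lymphocyte, monocyte and interstitial macrophage classes. Endothelial-like cells were at 27 and 16 for this tag. With the doublet calls left in, the RNA of the 3 chains thus differed between the libraries where the raw surface tag had nearly the same median. Without those calls only Ms4a2 was read, at a ratio of 1.97 (1.2 to 3.32), so the other 2 chains lack that check. Tag background was unlike in the libraries. The same tag had medians of 1 and 4 in T-like cells, and an isotype control tag 0.5 and 2 in the basophil-like cells. The raw medians therefore do not show whether the surface level was equal.

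These cells were basophil-like rather than mast-like. The mast cell protease genes Tpsb2, Tpsab1 and Mcpt4 were at 0 in both libraries, and Cma1 had 1 UMI in each. Kit, the mast cell growth factor receptor, was at 0 with the KO label and had 20 UMIs with the WT label, all in 1 cell. Mcpt8, a basophil protease, had 259 and 39 UMIs, and Prss34 100 and 8, which with Ms4a2 were higher with the KO label, while Cyp11a1 had 121 and 136. The basophil marker list summed to 19921 and 12705 CPM, and neutrophil markers in the same cells to 266 and 1937 CPM; their part was not tested.

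**Figure D5:**
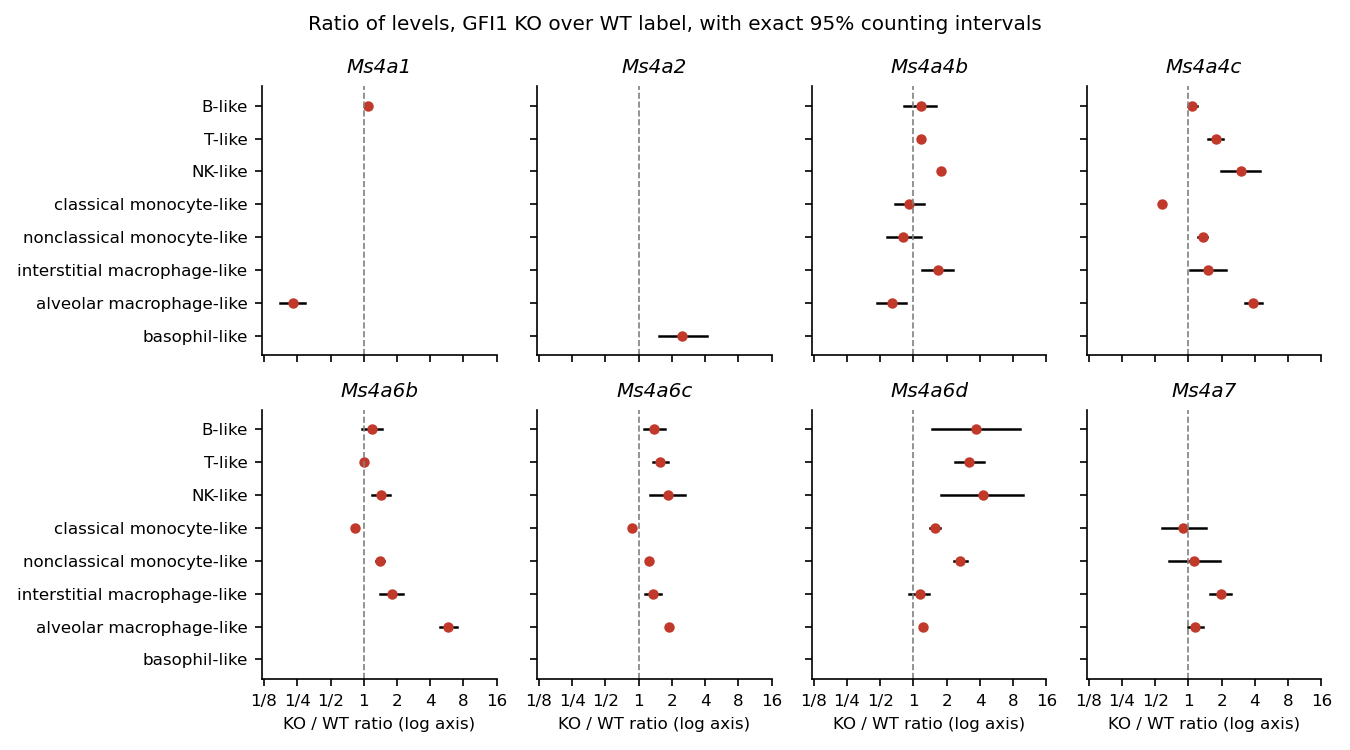
Ratio of the level under the GFI1 KO label to that with the WT label (horizontal log axis) for each gene in 8 classes, shown where both libraries had at least 10 UMIs, with exact 95% counting intervals and a dashed line at 1. Ms4a6d lies to the right of 1 in all 7 classes shown, with an interval that includes 1 in interstitial macrophage-like cells. Its points rest on only 12 and 11 UMIs in B-like cells and 10 and 18 in NK-like cells. Ms4a4c lies at 0.58 in classical and at 1.35 in nonclassical monocyte-like cells. Alveolar macrophage values include the doublet-rich cluster.

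The remaining family in the matrices was 13 further Ms4a genes and the Ms4a-like Tmem176a and Tmem176b. Ms4a4a, a macrophage and monocyte gene, was at 133 and 110 CPM in classical monocyte-like cells and at 136 and 73.2 CPM in nonclassical ones, a ratio of 1.85 (1.61 to 2.13), the direction of Ms4a6d in both classes. Ms4a8a belonged to alveolar macrophage-like cells, at 265 and 286 CPM, and Ms4a4d to fibroblast and mural cells, at 151 and 137 CPM. Ms4a3, a gene of granulocyte and monocyte precursors, had 92 and 18 UMIs in all, with 35 and 0 in classical monocyte-like cells. Those were 4315 and 250 cells, so no order of levels is read from the 35 and 0. Tmem176a and Tmem176b in T-like cells were at 233 and 26.0 CPM and at 199 and 21.3 CPM.

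The genes most like each member were read by profile over 28 class and library means, and for some members they included known marks of the same cells. For Ms4a1 these were Pax5 (Pearson r 0.98), Iglc2 and Cd79a, and for Ms4a2 Fcer1a (1.00), Mcpt8 and Cyp11a1. For Ms4a4b they were Lck (0.92), Sh2d1a and Cd247, for Ms4a4c Susd3 (0.92), Pou2f2 and Calhm6, for Ms4a6d Mcub (0.95), Fcgr1 and Msr1, and for Ms4a7 Slc13a3 (0.93), Fabp7 and Clec4b1. The highest r was lower for Ms4a6b (Raet1e, 0.80) and Ms4a6c (Arpc1b, 0.86). Among the members Ms4a6d and Ms4a7 (0.75), Ms4a6c and Ms4a6d (0.73) and Ms4a6b and Ms4a6c (0.69) were most alike. Ms4a4b and Ms4a4c, with partly shared promoters, were at 0.22. These r values are across classes that share a library and its depth and are descriptions only. Pax5, Cd79a, Fcer1a, Mcpt8, Cyp11a1 and Lck were on the marker lists that named the classes, so their likeness was partly built in.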

How the data were processed

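Single-cell RNA was measured in 1 library per genotype label. The authors deposited raw UMI counts per gene and antibody tag for each called cell, made with Cell Ranger 9.0.1 on GRCm39 (mm39) per the labels' processing notes and not normalized; removal of doublets or free RNA is not given in the sources used here. The steps of the study's methods were run in scanpy 1.11.5, with leidenalg 0.10.2, numpy 2.4.6, scipy 1.17.1, Python 3.11.15, R 4.3.3 and matplotlib 3.10.9. Kept cells had at least 500 UMIs, at least 200 genes and at most 20% mitochondrial UMIs. Ribosomal, mitochondrial and Gm- genes, 9548 in all with 19.0% and 16.5% of UMIs in the KO-labelled and WT-labelled library, were set aside and are not in the CPM denominator. Leiden clustering (resolution 0.8, seed 0, 2000 variable genes, 50 components, 15 neighbours) joined both libraries without batch correction, and no Ms4a gene, Tmem176a or Tmem176b could be a variable gene.

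Clusters were called X-like from at least 3 markers raised 1.5-fold and seen in 5% of cells. Ties, 2 lineages with 60% of markers each, or 10 top genes richer in markers of a different type or of cycling cells left a cluster unnamed; the cycling condition was added after a mixed proliferating cluster had come out as T-like. Scrublet called 346 (3.30%) and 1145 (5.92%) cells, which were removed only where stated. CPM have exact Poisson intervals, shares Clopper-Pearson intervals and ratios conditional binomial intervals; the ratio function was tested on simulated data, and no p-value was computed. A 2-fold difference was counted among genes with 30 or more UMIs over both libraries. Named genes were the members, the other family genes, the FceRI and B cell receptor lists, and the 3 genes of at least 100 UMIs most like each member in log2(CPM + 1). A gene of the B cell receptor list is not reported here. The members, markers and lists were chosen with earlier results of these data known. Alternatives were doublet removal before clustering, resolutions 0.5 and 1.2, each library on its own, a marker gate of 3 markers, no cell filter, another denominator, per-cell means, 1 monocyte class alone and, added after the data were seen, shared barcodes left out and doublet calls removed within clusters.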

Additional observations from a re-analysis of the deposited data

Results flagged for a closer look

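In 3 genes the KO to WT ratio lay above 1 in 1 class and below 1 in another; with 1 library per genotype, the difference between the classes was not tested. Ms4a4c had a ratio of 1.35 (1.23 to 1.48) in nonclassical monocyte-like cells and 0.578 (0.546 to 0.612) in classical monocyte-like cells. Ms4a6b had 1.79 (1.41 to 2.24) in interstitial macrophage-like cells and 0.835 (0.786 to 0.888) in classical monocyte-like cells. Ms4a6c had 1.35 (1.13 to 1.59) in interstitial macrophage-like cells and 0.869 (0.833 to 0.906) in classical monocyte-like cells. The ratios taken were the highest and the lowest clear of 1 among the classes compared. Each class had at least 10 UMIs in each library and at least 100 CPM in either. A gap of some size was thus built into the choice. Conventional dendritic-like cells were not among the classes compared, although Ms4a6c met these limits there. Its ratio in them was 1.47 (1.10 to 1.94), from 64 and 282 UMIs. The lower side did not hold for Ms4a6c at resolution 0.5, with 0.98 (0.95 to 1.01) in classical monocyte-like cells, nor in cells gated by markers without clusters, with 1.02 (0.98 to 1.06); under that gate Ms4a6b was 0.98 (0.93 to 1.03). The higher side did not hold for Ms4a4c at resolution 0.5, with 1.04 (0.85 to 1.27) in nonclassical monocyte-like cells. In interstitial macrophage-like cells without doublet calls the ratio was 1.42 (1.07 to 1.85) for Ms4a6b and 1.28 (1.06 to 1.53) for Ms4a6c. That class held 41 and 377 cells as reported and 135 and 593 at resolution 0.5.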

How the results depend on the processing

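The values are log2 ratios of the KO to the WT label. Over 95 alternatives for 9 ratios, 59 stayed within counting error of the reported value, 32 moved further and 4 turned from a reported value clear of 0. Ms4a6b in T-like cells, reported at -0.0052 with an interval that included 0, was above 0 in 4 of 10 alternatives. Ms4a4c and Ms4a6c in all monocyte-like cells, reported at 0.11 and 0.33, turned to -0.79 and -0.20 in the classical clusters alone, and Ms4a7 in interstitial macrophage-like cells, at 0.97, turned to -0.82 with Scrublet doublets left out before clustering and to -0.21 at resolution 0.5, where the cluster was wider. Ms4a7 was 0.43 at resolution 1.2, 0.44 under the marker gate and 0.45 with no filter on cells.

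With doublets left out before clustering, Ms4a4c, Ms4a6c and Ms4a6d in monocyte-like cells were 1.84, 0.92 and 2.94, and Ms4a4b in T-like cells 0.26. With each library clustered on its own they were 2.19, 1.10, 3.14 and 0.12, with Ms4a4b in NK-like cells at 0.54 and Ms4a1 in B-like cells at 0.045. In these settings 241 and 250 of the 250 WT-labelled classical monocyte-like cells stayed unnamed, while 2199 and 2782 KO-labelled ones kept their class, so the monocyte values set mainly classical KO-labelled cells against 388 and 371 almost wholly nonclassical WT-labelled cells. With each library on its own, 473 KO-labelled classical monocyte-like cells were named neutrophil-like. No interstitial macrophage-like cluster formed in the KO-labelled library on its own, so Ms4a7 has no value there. No basophil-like cluster formed in the WT-labelled one, where the marker rule took 152 cells and Ms4a2, reported at 1.32, was 5.70. Under the marker gate Ms4a1 was 0.027, Ms4a4b in T-like cells 0.41, Ms4a4c 0.34, Ms4a6b in T-like cells 0.13 and Ms4a6c 0.53. With no filter on cells Ms4a1 was 0.21, Ms4a4c 0.61, Ms4a6c 0.63 and Ms4a6d 2.16. There 212 of the 250 WT-labelled and 2092 of the 4315 KO-labelled classical monocyte-like cells stayed unnamed. By means of per-cell CPM Ms4a4b in T-like cells was 0.27, Ms4a4c 0.21, Ms4a6c 0.42 and Ms4a6d 1.53. With all gene UMIs as denominator Ms4a4b in NK-like cells was 0.73 and Ms4a6c 0.28, and at resolution 0.5 Ms4a6c was 0.29. Classical clusters alone gave Ms4a6d 0.64, and nonclassical clusters alone Ms4a4c 0.43. Apart from what a class held, the cause of these moves was not tested.

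No paired analysis was possible because each genotype had 1 library and the ratios come from no test, although both animals carry the number 1. With 18 and 15 basophil-like cells and 41 interstitial macrophage-like cells under the KO label, Ms4a2 and Ms4a7 rested on 24 to 501 UMIs a library, and smaller differences were not detectable at this depth.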
